A study of Mus musculus with 16 samples.

Results

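RNA was compared between sorted dorsal root ganglion cells of paclitaxel-treated mice with and without a Cre recombinase directed against the lymphotoxin-beta receptor gene Ltbr. The comparison takes 8 of the 16 libraries of the study, chosen by their titles. There are 4 libraries titled PTX Nav1.8/LTbR CKO (called CKO here) and 4 titled PTX LTbR-fl/fl (called fl/fl). The CKO mice carried floxed Ltbr alleles and a Cre driven by Nav1.8, the sodium channel of nociceptors encoded by Scn10a. The fl/fl mice carried the floxed alleles without the Cre. All were males of 8 to 16 weeks that had received 3 intraperitoneal injections of paclitaxel (PTX), a microtubule-stabilising chemotherapy drug known for painful nerve damage as a side effect, at 6 mg per kg and 2 days apart. A fluorescent wheat germ agglutinin was given into the paw 16 days after the final dose, and lumbar ganglia were taken at 18 days for flow sorting of tracer-positive cells. The other 8 libraries are the same genotypes under vehicle. They serve here for the test of whether a genotype difference under PTX differs from that under vehicle.

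As a model the design has limits that the labels state or leave unstated. A Nav1.8-driven Cre is meant to delete Ltbr in neurons that have used Scn10a, so any other cell in the sort keeps the gene in both groups. The labels do not say which exons were floxed or whether each library came from a separate animal, and the design text gives 3 per group where the labels give 4. The p-values here therefore measure the spread between libraries, which may be technical.

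The lymphotoxin-beta receptor is a member of the tumour necrosis factor receptor superfamily. It binds membrane lymphotoxin (Lta and Ltb products) and LIGHT (the Tnfsf14 product), recruits Traf2 and Traf3, and releases the kinase NIK (Map3k14) from degradation. NIK then acts through IKK-alpha (Chuk) on p100 (Nfkb2), whose processed form enters the nucleus with RelB, the non-canonical arm of NF-kB. The receptor is best known for the development and upkeep of lymphoid tissue, where it induces chemokines and adhesion molecules in stromal cells.

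Gene counts per library ran from 7906504 to 11668007 over the 8 libraries. Every title carries a date, 9/24 for replicates 1 and 2 and 9/25 for replicates 3 and 4 of both genotypes, so genotype is balanced over the dates, and the labels do not say what the date marks. The first principal component held 45% of the variance and separated the dates, while the second held 24.1% and set CKO replicate 4 (score 99.8) against fl/fl replicate 4 (score -109). By edgeR's adjusted p, 936 genes (6.87%) were higher and 480 genes (3.52%) lower in the 9/25 than in the 9/24 libraries. The date was therefore a block in the comparison of genotypes, and levels below are CPM, read counts normalised by effective library size, in the order of replicates 1 to 4.

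The targeted gene showed no decrease with the CKO label. Ltbr stood at 25.7, 6.13, 21.7 and 30.0 CPM in the libraries labelled CKO and at 6.09, 8.66, 13.5 and 16.3 CPM in fl/fl libraries. Its groups overlapped, because CKO replicate 2 lay at the level of the lowest fl/fl library, while the other CKO libraries lay above all 4 fl/fl libraries. The log2 fold change was 0.95 ± 0.58 (SE), and the exact permutation test over 70 assignments gave a two-sided p of 0.229 for a difference in mean log2(CPM + 1) of 0.74. Within dates the difference was 0.74 on both dates, and the exact permutation test over 36 assignments gave p = 0.167 against a smallest attainable p of 0.0556. Reads were counted over the whole gene, so RNA of a deleted allele that lacks the floxed exons would still be counted, and cells outside the Cre lineage would add their own Ltbr RNA. These counts are therefore no check of the deletion itself, and every direction given for CKO is that of the libraries labelled so.

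The gene whose promoter or locus drives the Cre was present in all libraries. Scn10a stood at 915, 1110, 316 and 380 CPM in CKO libraries, against 1320, 1170, 547 and 317 CPM in fl/fl libraries. It was higher on 9/24 than on 9/25 in both genotypes, and the genotypes overlapped on the whole. The log2 fold change was -0.30 ± 0.18, with an exact permutation p of 0.6 over all assignments and 0.222 within dates.

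**Figure D1:**
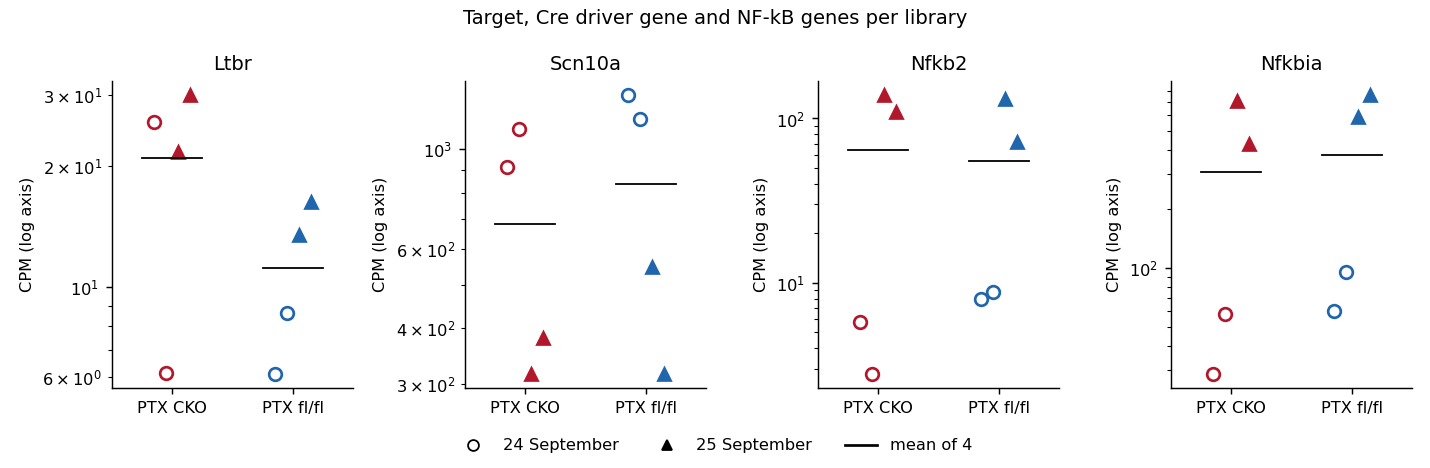
CPM on a log axis for Ltbr, Scn10a, Nfkb2 and Nfkbia in the 4 PTX CKO and 4 PTX fl/fl libraries, open circles for 9/24, triangles for 9/25 and a line at the mean of 4. Ltbr was 25.7, 6.13, 21.7 and 30.0 CPM in CKO libraries, above the fl/fl range in 3 of 4, while Nfkb2 and Nfkbia separate by date and not by genotype.

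No gene passed the test between the genotypes under PTX. Of 22609 gene entries 13633 were tested, and edgeR's quasi-likelihood test called 0 in either direction after Benjamini-Hochberg adjustment, with 456 (3.34%) at an unadjusted p under 0.05, of which 223 (1.64%) were higher and 233 (1.71%) lower in CKO libraries. Limma-voom also called 0, with 695 (5.1%) at an unadjusted p under 0.05, while DESeq2 called 4 genes (0.0293%) and had 957 (7.02%) at an unadjusted p under 0.05. All tested genes had a median log2 fold change of -0.0347, with 6433 above 0 and 7200 below. The groups did not overlap for 280 genes (2.05%), of which 127 (0.932%) were higher and 153 (1.12%) lower in CKO libraries. Of the 70 assignments of 4 against 4 libraries, a fraction of 0.0286 separates the groups of a gene without ties. A lack of overlap is therefore a description of a gene and no support. The median standard error was 0.565 on the log2 scale over all genes, 0.214 for genes at or above 100 CPM and 0.479 for those between 10 and 100 CPM.

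**Figure D2:**
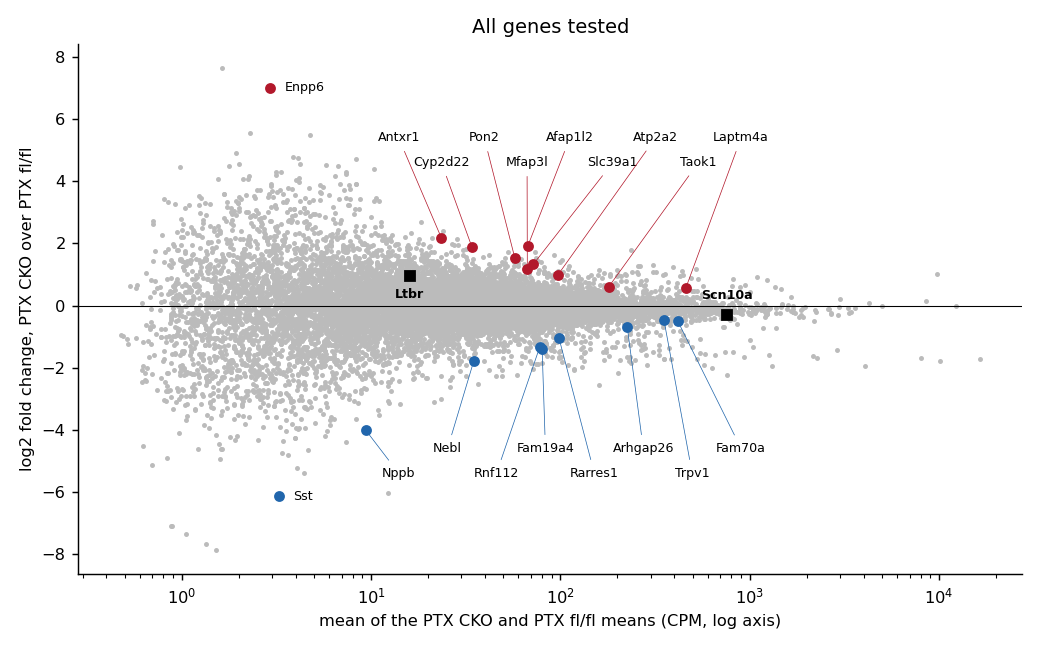
Log2 fold change of PTX CKO over PTX fl/fl against mean CPM (log axis) for the 13633 genes tested, with 10 higher genes (red) and 9 lower genes (blue) taken from those of smallest p without overlap, and Ltbr and Scn10a as black squares. No point passed edgeR's adjusted p, and the spread of fold changes narrows as the level rises.

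The 10 genes with the smallest p among those with higher, non-overlapping CKO values are given as values that did not pass edgeR, with an adjusted p of 1 after rounding for each. Atp2a2, the calcium pump SERCA2 of the endoplasmic reticulum, stood at 168, 138, 98.0 and 109 CPM in CKO libraries and 90.4, 83.2, 48.4 and 43.4 CPM in fl/fl libraries. All 4 CKO libraries lay above all 4 fl/fl libraries, and on both dates, with a log2 fold change of 0.99 ± 0.19. DESeq2 called it with an adjusted p of 0.0298. Slc39a1, a zinc importer of the plasma membrane, stood at 112, 67.3, 81.0 and 148 CPM in CKO libraries and 21.7, 40.3, 51.6 and 53.5 CPM in fl/fl libraries, a log2 fold change of 1.33 ± 0.32. Pon2, the antioxidant lactonase paraoxonase-2, stood at 108, 56.4, 98.0 and 78.9 CPM in CKO libraries and 24.9, 39.3, 39.4 and 14.1 CPM in fl/fl libraries, a log2 fold change of 1.54 ± 0.40. CKO replicate 2 was the nearest to the fl/fl range for both genes. Cyp2d22, a cytochrome P450, averaged 53.8 ± 23.5 CPM in CKO libraries and 14.4 ± 3.33 CPM in fl/fl libraries (SD, n = 4 each). Antxr1, a collagen-binding membrane protein and anthrax toxin receptor, averaged 39.2 ± 31.6 CPM in CKO libraries and 7.81 ± 1.86 CPM in fl/fl libraries. Its CKO spread came from replicate 4 at 84.3 CPM, against 11.4 CPM in replicate 2.

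Enpp6, a choline-specific phosphodiesterase known in myelin-forming glia of the brain, passed the filter on low counts and the minimum of 5 CPM for a named gene through the CKO libraries alone, so its values are a description. It had 39, 6, 46 and 105 counts in CKO libraries and 0, 1, 0 and 0 counts in fl/fl libraries. The sum of 196 counts in CKO libraries against 1 in fl/fl libraries gives a ratio of 226, with a 95% exact binomial interval of 40.1 to 8980 that covers counting error only. DESeq2 called it with an adjusted p of 0.0380, and edgeR gave an unadjusted p of 0.00384 and an adjusted p of 1. All 8 vehicle libraries had 0 counts.

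The remaining genes of this direction were Mfap3l, Afap1l2, Laptm4a and Taok1. Afap1l2, an adaptor bound to actin filaments, averaged 107 ± 69.7 CPM in CKO libraries and 27.5 ± 12 CPM in fl/fl libraries. Mfap3l averaged 93.5 ± 30.6 CPM in CKO libraries and 40.3 ± 5.27 CPM in fl/fl libraries. Smaller in fold were Laptm4a, a lysosomal membrane protein, with a log2 fold change of 0.57 ± 0.16, and Taok1, a kinase that acts on microtubule dynamics, with 0.61 ± 0.18.

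Among the genes with lower, non-overlapping CKO values and the smallest p, again none passed edgeR and each adjusted p was 1 after rounding. Rnf112, a ubiquitin ligase with a GTPase domain known in the brain, had the smallest p of all 13633 genes, an unadjusted edgeR p of 0.000336. It stood at 37.3, 44.4, 47.9 and 47.3 CPM in CKO libraries and at 125, 78.6, 139 and 104 CPM in fl/fl libraries. The CKO libraries were close together and the lowest fl/fl library was well above them, with a log2 fold change of -1.33 ± 0.23 and a DESeq2 adjusted p of 0.00432. Rarres1, a retinoic acid-induced membrane protein, stood at 54.5, 63.4, 85.6 and 54.3 CPM in CKO libraries and 130, 108, 152 and 137 CPM in fl/fl libraries. Its log2 fold change was -1.03 ± 0.21 with a DESeq2 adjusted p of 0.0380. When each of the 8 libraries was left out in turn, DESeq2 kept Rnf112 in 7, Atp2a2 in 4, Rarres1 in 3 and Enpp6 in 1, and its count of calls ran from 1 to 79. The largest count, 79, came without fl/fl replicate 4, and the smallest without fl/fl replicate 1.

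The lower genes included one of the best known genes of nociceptors. Trpv1, the receptor for heat and capsaicin, stood at 274, 346, 298 and 267 CPM in CKO libraries and 379, 443, 372 and 440 CPM in fl/fl libraries. The gap between the groups was narrow, 346 against 372 CPM at the closest, and the log2 fold change was -0.47 ± 0.14. Nebl, the actin-binding protein nebulette, had a log2 fold change of -1.79 ± 0.48, and Arhgap26, a GTPase-activating protein, one of -0.68 ± 0.17. Tmem255a, listed as Fam70a, had one of -0.50 ± 0.15.

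**Figure D3:**
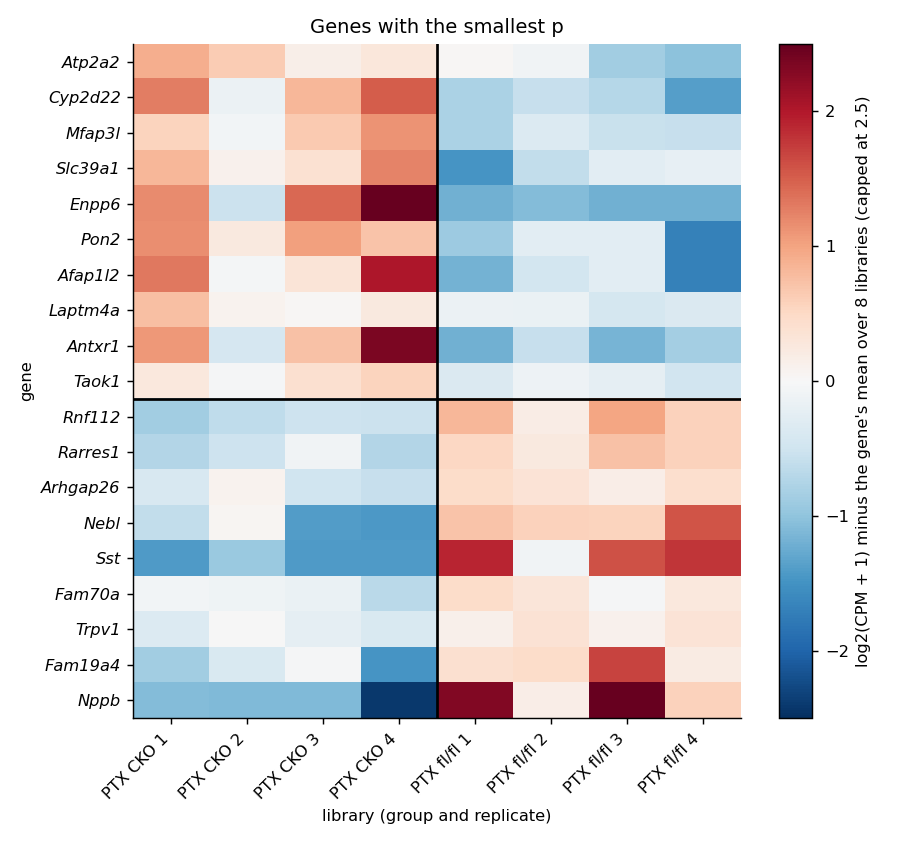
Log2(CPM + 1) of 19 genes taken from those of smallest p whose groups did not overlap, each gene centred on its mean over the 8 libraries, with 4 PTX CKO libraries left and 4 PTX fl/fl libraries right. CKO replicate 2 is the palest CKO column for most genes that were higher, and the strongest colours are those of Enpp6, Antxr1 and Nppb.

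Of the markers of itch-sensing neurons none was called between the genotypes by edgeR. Of the 9 tested, 3 (Osmr, Sst and Nppb) had an unadjusted p under 0.05, where the share over all genes was 3.34%. This count is no support, because Sst and Nppb reached the minimum of 5 CPM through the fl/fl libraries alone. The log2 fold changes of the 9 were all below 0 with a median of -2.5. That median rests on members with few counts and moved with the settings. It was -1.65 with a filter of 5 CPM in 4 libraries, -1.86 with no date block, -1.64 with the replicate block, -1.16 with a neuron marker covariate and -0.82 without fl/fl replicate 3. Within dates it was -1.71 on 9/24 and -1.60 on 9/25, and without replicate 4 of both genotypes -2.59. Nppb, the peptide of these neurons known to act on spinal cord neurons in itch, stood at 1.52, 1.48, 1.49 and 0 CPM in CKO libraries and 25.6, 5.04, 32.9 and 7 CPM in fl/fl libraries. Every CKO library lay below every fl/fl library, and the log2 fold change was -4.01 ± 1.29. Sst, the neuropeptide somatostatin of the same cells, had 0, 4, 0 and 0 counts in CKO libraries and 108, 17, 62 and 77 counts in fl/fl libraries. Sst and Nppb reached the minimum of 5 CPM through the fl/fl libraries alone, so their differences are a description and their p-values no support. The sums for Sst, 4 counts in CKO and 264 in fl/fl libraries, gave a ratio of fl/fl over CKO of 57.2 with a counting interval of 22.1 to 211. Osmr, the oncostatin M receptor chain that pairs with Il31ra for interleukin-31, stood at 84.9, 131, 59.9 and 24.1 CPM in CKO libraries and 240, 185, 207 and 90.4 CPM in fl/fl libraries. The groups of Osmr overlapped across dates but not within either date, and its log2 fold change was -1.40 ± 0.40. Il31ra itself stood at 13.9, 5.53, 4.02 and 0.883 CPM in CKO libraries and 50.0, 13.5, 101 and 0 CPM in fl/fl libraries, so fl/fl replicate 4 broke its order. The other members were Mrgprx1 (-0.76 ± 1.49), Htr1f (-2.5 ± 1.64), Cysltr2 (-1.67 ± 1.59), Nts (-2.86 ± 2.23) and Jak1 (-0.33 ± 0.24), all log2 fold changes. Together the list took 0.0371, 0.0379, 0.0313 and 0.0280% of gene counts in CKO libraries and 0.0730, 0.0511, 0.0740 and 0.0302% in fl/fl libraries. In bulk RNA, fewer cells of a type and less RNA per cell cannot be told apart.

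Low-threshold C fibres and cold neurons gave 7 of 8 members below 0, with a median of -0.42 and 0 called by edgeR. The groups did not overlap for 2 of the 8, against 2.05% of all genes, and both are known from the C fibres that sense light touch. Tafa4, listed as Fam19a4 and a secreted protein of these fibres, stood at 35.7, 49.9, 64.5 and 23.1 CPM in CKO libraries and 86.6, 90.8, 214 and 75.8 CPM in fl/fl libraries. Th, which encodes tyrosine hydroxylase and was chosen after its values were seen, stood at 79.0, 99.0, 116 and 25.1 CPM in CKO libraries and 191, 226, 282 and 133 CPM in fl/fl libraries. Both had a log2 fold change of -1.39, with standard errors of 0.43 for Fam19a4 and 0.45 for Th. Of the non-peptidergic nociceptor markers 11 of 12 were below 0, with a median of -0.49. Mrgprd, the receptor that names this class, stood at 405, 712, 90.9 and 68.6 CPM in CKO libraries and 877, 634, 104 and 143 CPM in fl/fl libraries, with overlap on 9/24.

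Peptidergic nociceptor markers had a median nearer 0. Their median log2 fold change was -0.09 over 12 members, 5 above and 7 below 0. Calca, which encodes the peptide CGRP, stood at 5050, 6010, 3300 and 3230 CPM in CKO libraries and 4820, 5380, 3410 and 2890 CPM in fl/fl libraries, a log2 fold change of 0.09 ± 0.10. Tac1, the precursor of substance P, had one of 0.04 ± 0.15. The groups of both genes overlapped. The pan-neuronal list had 14 of 16 members below 0 with a median of -0.27, and Nefh, the heavy neurofilament of large neurons, had a log2 fold change of 0.55 ± 0.22.

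Markers of myelinated mechanoreceptors and proprioceptors had a median of 0.28, with 9 of 13 members above 0 and 0 called, and a median of -0.11 in limma-voom. Ntrk2, the receptor of brain-derived neurotrophic factor, stood at 377, 138, 142 and 229 CPM in CKO libraries and 68.9, 117, 81.2 and 128 CPM in fl/fl libraries. The groups did not overlap, by 138 against 128 CPM at the closest, and the log2 fold change was 1.15 ± 0.37. The satellite glial marker Apoe was likewise highest in CKO replicate 1 (21700 CPM). In fl/fl libraries both were lowest in replicate 1 (Apoe 3320 CPM) and highest in replicate 4 (Apoe 11900 CPM). Which cells supplied the Ntrk2 RNA was not tested. Other members of the list had values such as those of Cntnap2 (0.48 ± 0.24), Kcna1 (0.28 ± 0.22), Ntrk3 (-0.12 ± 0.50) and Etv1 (-0.02 ± 0.49).

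All 15 satellite glial markers tested had a positive log2 fold change, from 0.47 to 1.95 with a median of 0.82. Of these, 0 were called by edgeR and 3 had an unadjusted p under 0.05, against 3.34% of all genes. These cells wrap the neuron bodies of the ganglion. Apoe, the lipid carrier they secrete, stood at 21700, 8510, 7950 and 13200 CPM in CKO libraries and 3320, 5820, 5450 and 11900 CPM in fl/fl libraries. Fabp7, their fatty acid-binding protein, stood at 2810, 1190, 801 and 1520 CPM in CKO libraries and 525, 830, 639 and 1550 CPM in fl/fl libraries. Fl/fl replicate 4 reached the CKO levels for both genes, so the groups overlapped, and the log2 fold changes were 1.00 ± 0.45 and 0.82 ± 0.46. The groups did not overlap for 1 of the 15, against 2.05% of all genes. This was Slc1a3, a glutamate transporter chosen after its values were seen. It stood at 31.4, 18.1, 24.0 and 113 CPM in CKO libraries and 5.17, 12.5, 9.75 and 15.9 CPM in fl/fl libraries (log2 fold change 1.95 ± 0.60). The whole list took 3.30, 1.30, 1.13 and 2.11% of gene counts in CKO libraries and 0.546, 0.961, 0.785 and 1.91% in fl/fl libraries. Its median was 1.41 on 9/24 and 0.31 on 9/25, 0.41 without CKO replicate 1, 1.24 without fl/fl replicate 4 and 1.14 without replicate 4 of both genotypes. Under vehicle the same 15 members had a median genotype difference of -0.20. Satellite glial markers thus had a positive and pan-neuronal markers a negative median, and the part of these shares in the differences of single genes was not tested.

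Myelinating Schwann cell markers had a median of 0.40, with 8 of 14 members above 0, and one of -0.15 on 9/24 alone. Fibroblast markers had a median of 0.80, with 7 of 8 above 0, and one of -0.01 with the neuron marker covariate, and endothelial markers one of 0.48 over 9 members. The pericyte and smooth muscle list had a median of 0.06 over 9 members, the cell cycle list one of 0.24 over 16, and the lymphocyte and red cell lists had 2 and 1 members tested, at medians of -1.22 and 0.58. None of these lists had a member called by edgeR.

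**Figure D4:**
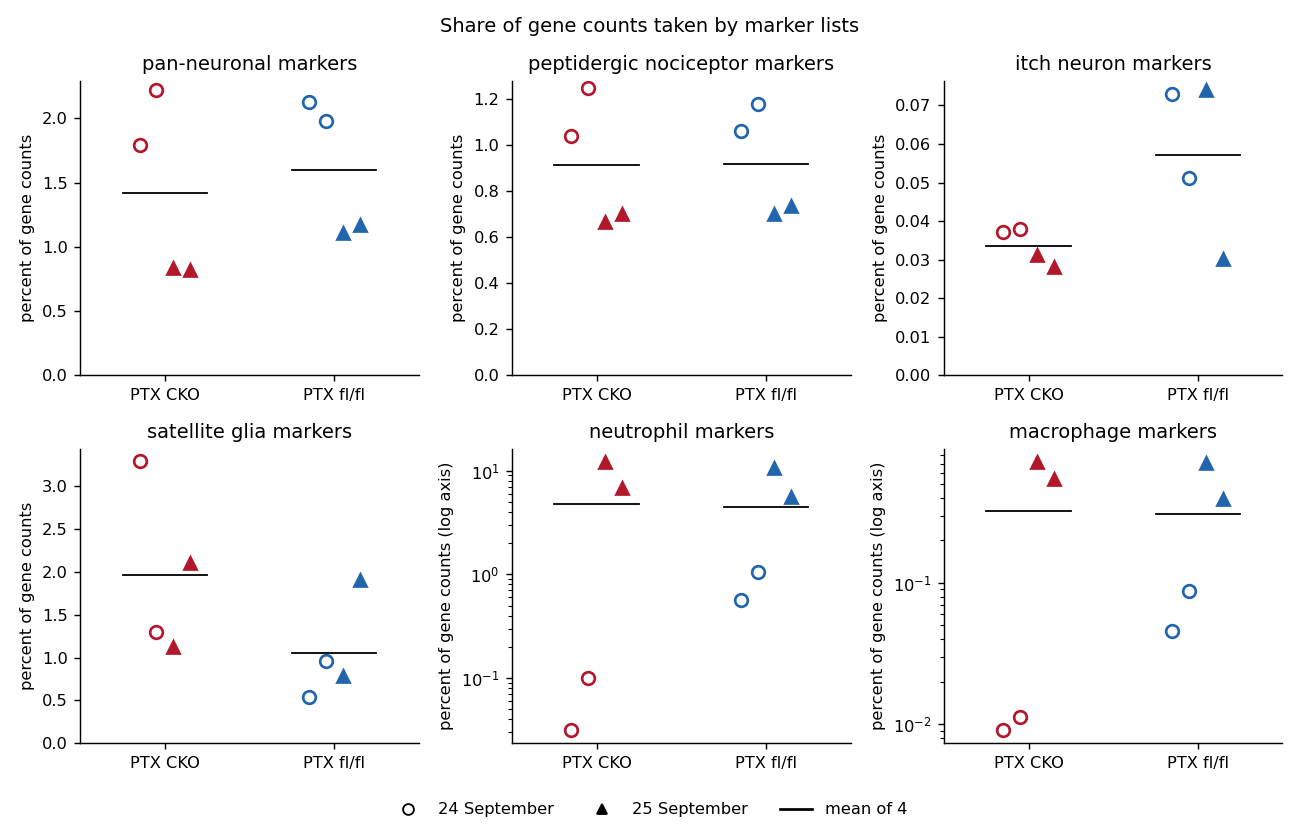
Percent of gene counts taken by 6 marker lists in each library, with PTX CKO left and PTX fl/fl right, circles for 9/24, triangles for 9/25 and a line at the mean of 4, on linear axes except the log axes for neutrophil and macrophage markers. Neutrophil markers took 12 and 6.80% in CKO and 10.5 and 5.52% in fl/fl libraries of 9/25, and far less on 9/24.

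The sort was for neurons, and the pan-neuronal markers took 1.79, 2.22, 0.833 and 0.820% of gene counts in CKO libraries and 2.13, 1.98, 1.11 and 1.17% in fl/fl libraries. Markers of neutrophils, the granulocytes of blood and marrow, were present as well and followed the date. They took 0.0316, 0.0993, 12 and 6.80% of gene counts in CKO libraries and 0.562, 1.05, 10.5 and 5.52% in fl/fl libraries. On 9/24 both CKO libraries lay below both fl/fl libraries, whereas on 9/25 the genotypes interleaved. The list's median log2 fold change was -1.68, but its direction depended on the date: it was -3.66 on 9/24 and 0.33 on 9/25, and 0.21 with no date block. It was -0.73 without CKO replicate 1, -0.46 in limma-voom and -2.41 without replicate 4 of both genotypes, and 0 of the 13 members were called. Macrophage markers, which had a median of -0.19 over 14 members, took 0.0091, 0.0112, 0.715 and 0.549% of counts in CKO libraries and 0.0455, 0.0872, 0.709 and 0.392% in fl/fl libraries.

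No gene of the receptor's own pathway was called between the genotypes. Of 16 members 14 were tested, 4 with a log2 fold change above and 10 below 0, a median of -0.33, 0 called and 0 at an unadjusted p under 0.05. Among the ligands, Ltb stood at 0.108, 0.494, 27.9 and 43.5 CPM in CKO libraries and 0.584, 2.74, 38.4 and 62.4 CPM in fl/fl libraries. Tnfsf14 stood at 0, 0, 16.6 and 37.7 CPM in CKO libraries and 1.75, 2.12, 15.1 and 3.39 CPM in fl/fl libraries, and Lta had 0 counts in all 8. Both ligands were thus mainly seen in the 9/25 libraries, those with the larger share of neutrophil markers, and the part of those cells in the ligand RNA was not tested. Downstream, the adaptors Traf3 and Traf2 had log2 fold changes of 0.63 ± 0.42 and -0.49 ± 0.64, the ubiquitin ligases Birc2 and Birc3 had -0.71 ± 0.48 and -0.35 ± 0.39, and the kinases Map3k14, Chuk and Tbk1 had -0.20 ± 0.90, 0.13 ± 0.47 and -0.16 ± 0.30. Otud7b, a deubiquitinase of Traf3, had 0.24 ± 0.47. Tnfrsf14, the other receptor of LIGHT, had -2.36 ± 1.76 at levels of at most 5.83 CPM, and Traf5 did not pass the filter on low counts.

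The subunits at the end of the pathway followed the date. Nfkb2 stood at 5.75, 2.77, 139 and 110 CPM in CKO libraries and 7.93, 8.83, 131 and 72.3 CPM in fl/fl libraries. Relb stood at 7.48, 6.32, 35.8 and 19.3 CPM in CKO libraries and 7.26, 11.7, 38.4 and 25.5 CPM in fl/fl libraries. Nfkb2 was 4.22 ± 0.44 and Relb 1.87 ± 0.47 higher on the log2 scale in 9/25 than in 9/24 libraries, with edgeR adjusted p of 0.00167 and 0.0385, while the genotype differences were -0.32 ± 0.39 and -0.34 ± 0.46. The canonical list, with the feedback inhibitors of NF-kB, had a median genotype difference of 0.14 over 21 members, 12 above and 9 below 0. Nfkbia, the inhibitor I-kappa-B-alpha that NF-kB itself induces, stood at 28.7, 57.9, 712 and 426 CPM in CKO libraries and 60.6, 95.5, 584 and 760 CPM in fl/fl libraries. On 9/24 both CKO libraries were below both fl/fl libraries, on 9/25 the genotypes interleaved, and the log2 fold change was -0.54 ± 0.29. Nfkbid, another nuclear inhibitor protein and chosen after its values were seen, was the member with an unadjusted p under 0.05, at -1.78 ± 0.54. Of these 21 genes, 9 passed edgeR as higher on 9/25 and 0 as lower.

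NF-kB binds a 10-base motif, searched here as GGG, any 2 bases and TTTCC on both strands. Windows of 40 bases that hold it are shown for 4 genes picked because they had a match and their RNA followed the date. Traf3 also had a match, but its date difference was 0.33 ± 0.42 with an edgeR adjusted p of 0.718. Whether a match goes with a date difference was not tested. The windows lie in the 250 bases before a RefSeq start on GRCm38.p6, are written 5′ to 3′ on the strand of the gene, and have the match of either strand in capitals. They are Nfkb2 at chr19:46305690-46305729 (plus strand), Nfkbia at chr12:55492652-55492691 (minus strand), Cxcl2 at chr5:90903787-90903826 (plus strand) and Ltb at chr17:35194405-35194444 (plus strand).
Nfkb2: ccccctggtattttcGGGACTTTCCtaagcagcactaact
Nfkbia: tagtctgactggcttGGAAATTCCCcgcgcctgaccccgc
Cxcl2: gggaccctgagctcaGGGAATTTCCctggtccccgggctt
Ltb: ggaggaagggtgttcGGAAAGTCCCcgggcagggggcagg
The motif was found before 1.65% of 27025 genes, and before 3 of 14 genes of the receptor pathway (21.4%), 5 of 16 canonical genes (31.2%) and 5 of 15 genes of the induced chemokines and adhesion molecules (33.3%) that had a window. These lists were drawn up from genes known for NF-kB or for this receptor, so shares above that of all genes follow from the choice. The search used no counts of the libraries and says nothing of the genotypes or the dates. A match is a description of the letters and no measure of binding.

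Chemokines and adhesion molecules known to be induced by the receptor had 0 members called by genotype in edgeR. Of 21 genes 15 were tested, 8 above and 7 below 0, from -3.36 to 1.76 with a median of 0.03. Cxcl2, a neutrophil chemokine, stood at 1.08, 6.13, 186 and 192 CPM in CKO libraries and 9.93, 19.6, 186 and 220 CPM in fl/fl libraries. On 9/24 both CKO libraries lay below both fl/fl libraries, and the genotype difference was -1.01 ± 0.57 on the log2 scale, not called by edgeR. Cxcl2 was higher on 9/25 by 4.70 ± 0.64 with an edgeR adjusted p of 0.00388. Vcam1, an adhesion molecule of activated endothelium, had a genotype difference of 0.42 ± 0.60. The homeostatic chemokines Ccl19, Ccl21a and Cxcl13, best known as targets in lymphoid stroma, had 0 counts in all 8 libraries. Interleukins and their receptors had a median of -0.34 over 27 members, 9 above and 18 below 0. Il1b, a fever cytokine of myeloid cells, stood at 1.52, 12.3, 1140 and 814 CPM in CKO libraries and 64.9, 100, 1440 and 1040 CPM in fl/fl libraries. On 9/24 both CKO libraries lay below both fl/fl libraries, on 9/25 the genotypes interleaved, and the log2 fold change was -1.90 ± 0.83 with an unadjusted edgeR p of 0.0488 and an adjusted p of 1. The neutrophil marker shares given above had the same order on 9/24. Lifr, the receptor of leukaemia inhibitory factor, stood at 753, 905, 526 and 519 CPM in CKO libraries and 1110, 1060, 597 and 631 CPM in fl/fl libraries, a log2 fold change of -0.31 ± 0.11.

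**Figure D5:**
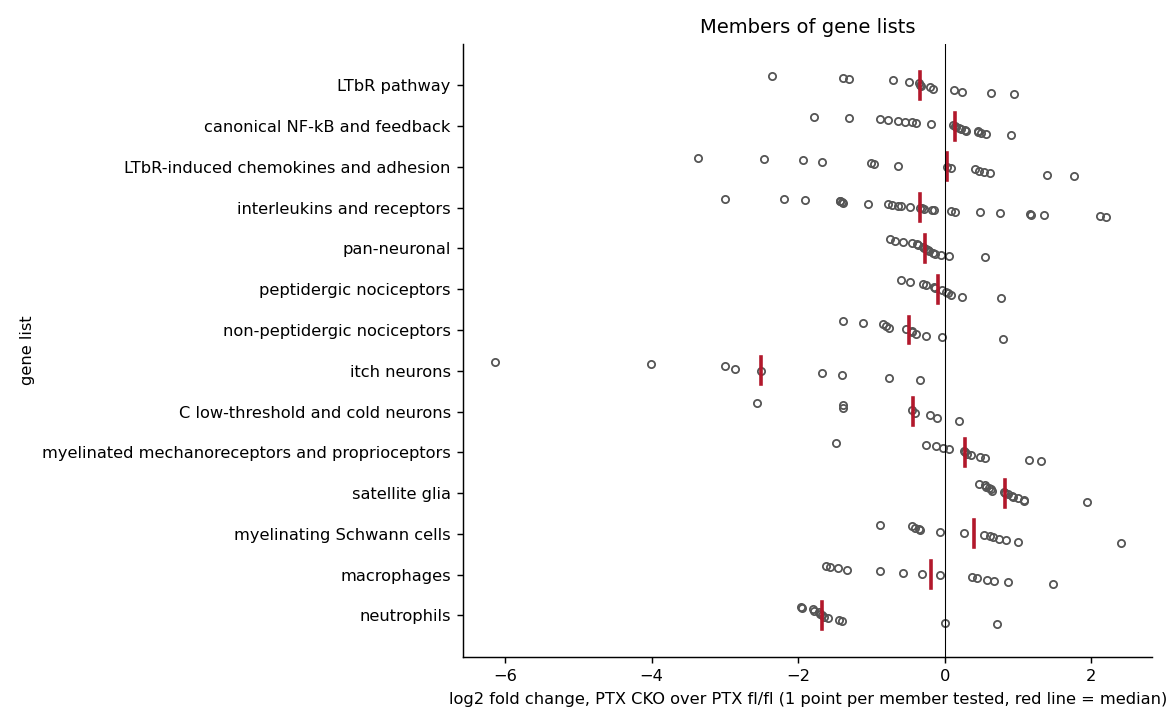
Log2 fold change of PTX CKO over PTX fl/fl for each tested member of 14 gene lists, 1 point per gene and a red line at the list's median. Satellite glial members all lie above 0 (median 0.82) and itch neuron members all below (median -2.5, and -1.65 with the filter of 5 CPM in 4 libraries), while the LTbR pathway spreads around -0.33 and none of the points passed edgeR's adjusted p.

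The genes of excitability and of the neuron's machinery had median differences from -0.49 to -0.11 and 0 calls by edgeR. Sodium channels had a median of -0.49 over 14 members, 10 below 0, and potassium channels one of -0.34 over 36, 26 below 0. Calcium, HCN, TRP and P2X channels had one of -0.11 over 30, and neuropeptides one of -0.14 over 15. Groups did not overlap for 1 of 14 sodium channels, 2 of 36 potassium channels, 2 of 30 of the third list and 2 of 15 neuropeptides. All of these were lower in CKO libraries, and the share over all genes was 2.05%. Besides Trpv1, Sst and Nppb they included Scn7a, Kcns1 and P2rx2, chosen after their values were seen. P2rx2, a subunit of ATP-gated channels, stood at 6.61, 4.84, 0.230 and 0 CPM in CKO libraries and 15.8, 9.10, 14.2 and 16.3 CPM in fl/fl libraries. Synaptic vesicle genes had a median of -0.18 with 23 of 30 below 0, and Syn1, the vesicle protein synapsin, had -0.48 ± 0.15. Tubulins and microtubule proteins, the class that holds the target of PTX, had a median of -0.15 with 28 of 35 below 0. Tubb5, a beta-tubulin, had -0.27 ± 0.14 and Tubb3, the neuronal beta-tubulin, -0.13 ± 0.12. All tested genes had a median of -0.0347, and the pan-neuronal markers one of -0.27.

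Other programmes had medians from -0.25 to 0.04, against -0.0347 for all genes, and 0 calls by edgeR. Injury and regeneration genes had a median of -0.06 over 24 members, neurotrophin and GDNF signalling -0.06 over 13, inhibitory receptor signalling -0.25 over 25, and the TNF superfamily -0.25 over 13. Interferon-induced genes had -0.07 over 28. The groups did not overlap for 1 of the 28, against 2.05% of all genes. This was the transcription factor Irf3, chosen after its values were seen, at 0.80 ± 0.32. The lists of MHC and antigen presentation (0.03 over 19), immediate-early genes (-0.08 over 24), heat shock and unfolded protein response (0.04 over 24) and respiratory chain (-0.05 over 30) each had 0 calls. Atp5b of the ATP synthase had 0.01 ± 0.10 and Hsp90ab1, a cytosolic chaperone, -0.09 ± 0.10, so these differences were small with narrow errors. Fos, an immediate-early transcription factor, stood at 552, 329, 1840 and 2340 CPM in CKO libraries and 338, 632, 1670 and 1870 CPM in fl/fl libraries, with a date difference of 2.06 ± 0.25 and a genotype difference of 0.05 ± 0.24.

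Whether a genotype difference differed between PTX and vehicle was tested with all 16 libraries. Every vehicle library was titled 10/1 or 10/2 and every PTX library 9/24 or 9/25, so treatment and date cannot be told apart. Genotype was balanced over the dates. The pan-neuronal marker Tubb3 averaged 2570 CPM in CKO and 2680 CPM in fl/fl libraries under PTX, against 400 and 569 CPM under vehicle. The part of such differences in the interaction was not tested. Of 14601 genes edgeR called 0 for the interaction after adjustment, with 571 (3.91%) at an unadjusted p under 0.05, limma-voom called 0 and DESeq2 called 78 (0.534%). Bend6, a DNA-binding transcriptional regulator, had the smallest p. Under PTX it stood at 37.3, 36.5, 34.8 and 19.7 CPM in CKO libraries and 48.1, 51.1, 49.3 and 26.2 CPM in fl/fl libraries. Under vehicle it stood at 0.112, 0, 0 and 0.208 CPM in CKO libraries and 23.2, 5.50, 17.0 and 38.5 CPM in fl/fl libraries. The genotype difference was -0.45 ± 0.33 under PTX, and the interaction was 7.27 ± 1.05 with an edgeR adjusted p of 0.0766 and a DESeq2 adjusted p of 1.54e-07. Slc29a4, a transporter of monoamines, Sbk1 and Psd3 had genotype differences under PTX of 0.06 ± 0.31, -0.43 ± 0.39 and -0.45 ± 0.36, all with overlapping groups. Their interactions were 5.43 ± 1.01, 2.60 ± 0.66 and -2.60 ± 0.66, called by DESeq2 with adjusted p of 0.00018, 0.00997 and 0.0173, while the edgeR adjusted p was 0.579 for Slc29a4 and 1 for Sbk1 and Psd3. Among the 20 genes of smallest p without overlap, Pon2 had an interaction of 1.99 ± 0.53, with an unadjusted edgeR p of 0.00203 and an adjusted p of 1. Trpv1 had one of -1.81 ± 0.77 and Ltbr one of 0.80 ± 0.66, both with an edgeR adjusted p of 1.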

How the data were processed

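Libraries were made with a stranded poly(A) kit and read as single ends, per the labels. Per the submitters' processing notes, bcl2fastq, TopHat2, HTSeq and the mm9 build were used, with versions not given in the sources used here. What the authors deposited is 1 raw count per gene and library. The 5 summary lines of each file were left out, and all 16 libraries were kept. Chi-square statistics per degree of freedom were at least 19.5 over the 24 pairs of libraries within a group, beyond sampling noise.

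Genes were filtered with filterByExpr, given TMM scaling and compared in edgeR 4.0.16 (robust quasi-likelihood F test with title date as block, 5 residual degrees of freedom) in R 4.3.3, two-sided, Benjamini-Hochberg adjusted over all genes, threshold 0.05. Each standard error is the fold change divided by the root of its F value. Limma-voom (limma 3.58.1, quality weights) and DESeq2 1.42.0 were alternatives. The interaction used all 16 libraries and 4 title dates. CPM under PTX are scaled over 8 libraries and under vehicle over 16. The exact tests used a pseudocount of 1. The procedure was tested on simulated data. Its rates of recovery are not given here, so the 0 calls set no limit on the size of a genotype difference. The common biological coefficient of variation over the 8 libraries was 0.757.

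Named genes are Ltbr, Scn10a, up to 10 genes per direction (called, else with the smallest p and no overlap, at least 5 CPM, no clone symbols), the receptor pathway, the 2 most counted members of each list and Bend6, Slc29a4, Sbk1 and Psd3. Not every one is described, and some are not reported here. The members and lists were chosen with earlier results of these data known. Of 688 list entries 5 did not match a file symbol and 18 matched through an older symbol. Promoter windows and names are from RefSeq on GRCm38.p6, and no coordinate was carried to mm9.

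Equal replicate numbers share a title date, and deviations from the group means correlated by 0.48, 0.52, 0.52 and 0.24 for the same number. Once date means were removed the correlations were -0.18, -0.18, 0.07 and 0.07. With 2 libraries per genotype and date, both numbers of a date must then give the same value. Only 1 separate value per date is left, too few to decide whether equal numbers were paired beyond the date. A block for the replicate number was an alternative. Others were upper-quartile or RLE scaling, no filter, 5 CPM in 4 libraries, no date block, each date alone, all 16 libraries in 1 fit, a neuron marker covariate and leaving out each library. Leaving out replicate 4 of both genotypes, and leaving out libraries in DESeq2, were chosen after seeing the data.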

Additional observations from a re-analysis of the deposited data

Results flagged for a closer look

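In groups of 4 libraries, 1 library stood far from the other 3 in 17 of 234 groups examined. The rule sets about 1 in 20 groups apart for independent, normally distributed values. It was applied to CPM without a log transform, so that rate cannot be set against this count. A group in which only 1 library has any counts, as Enpp6 in fl/fl and Sst in CKO, is always set apart.

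Such a library in fl/fl was found for Nebl, Fam19a4 and Enpp6, which are among the genes of smallest p without overlap. Nebl was 84.3 CPM in fl/fl replicate 4 and Fam19a4 214 CPM in fl/fl replicate 3, both above the other libraries of the group, and Enpp6 was 0.0883 CPM in fl/fl replicate 2 where the others had 0. In CKO, Sst was 0.395 CPM in replicate 2 where the others had 0, and Nppb was 0 CPM in replicate 4 where the others had 1.48 to 1.52 CPM. Bend6 was lower in replicate 4 of both genotypes, at 19.7 CPM in CKO and 26.2 CPM in fl/fl.

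In the receptor pathway, Tnfrsf14 was 4.94 CPM and Traf3 55.8 CPM in CKO replicate 3, while Tnfsf14 was 15.1 CPM in fl/fl replicate 3 and Traf2 56.4 CPM in fl/fl replicate 4. Among other list members, Cd3d, a T cell marker, was 3.44 CPM in CKO replicate 3. Ngfr was 1010 CPM in fl/fl replicate 2. Fl/fl replicate 3 stood apart for Nkg7, a marker of cytotoxic lymphocytes, at 19.8 CPM, for the fibroblast marker Dcn at 141 CPM and for the proliferation marker Mki67 at 62.4 CPM. Pericyte and smooth muscle markers took 0.0723% of gene counts in fl/fl replicate 4.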

How the results depend on the processing

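The count of genes called by genotype under PTX was 0 in edgeR under each scaling, filter, block and covariate tried, on each date alone, with all 16 libraries, without each library and without replicate 4 of both genotypes, and 0 in limma-voom, but 4 in DESeq2. The replicate block gave 0 calls, and it changed no call. The count of genes with groups without overlap was 280 of 13633 in the main fit. It was 5233 of 13397 with 9/24 alone and 4227 of 13132 with 9/25 alone, where 2 libraries stand against 2. Without replicate 4 of both genotypes it was 1150 of 14028, and 423 to 922 of 13988 to 14132 when each library was left out. Groups of fewer libraries are more often apart by chance order, so these counts cannot be set against each other. The interaction had 0 calls, 1 with no filter and 1 with no date block (both Bend6), 78 in DESeq2 and 0 to 6 without each library: Slc29a4 without vehicle fl/fl replicate 1, Bend6 without vehicle fl/fl replicate 2 and 6 genes without vehicle CKO replicate 4. The causes of these shifts were not tested. Ltbr ran from 0.35 to 1.21 and Scn10a from -0.45 to -0.13 on the log2 scale over 21 alternatives, without a change of sign or call. The 20 genes of smallest p without overlap kept their sign in every alternative that could be run. They were chosen for groups without overlap, so a kept sign was largely set by that choice and is no separate support. Of 35 list medians 22 changed sign in at least 1 alternative and 13 in none, and 76 of 734 values had the other sign, among them neutrophils (-3.66 to 0.33), fibroblasts (-0.01 to 1.05) and myelinating Schwann cells (-0.19 to 0.84). Itch neurons ran from -2.96 to -0.82 and satellite glia from 0.31 to 1.41. Errors were widest for genes under 10 CPM: the median standard error was 1.52 on the log2 scale for genes of 1 to 10 CPM. The parts of depth and of the spread between libraries in this were not tested.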
